A study of Homo sapiens with 18 samples.

Results

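Core and linker histone genes make the proteins on which DNA is wound. The members were every gene of the probe-to-gene table whose current symbol starts with H1-, H2AC, H2BC, H3C or H4C, or whose earlier symbol was of the HIST1H to HIST4H kind. The rule found 70 genes among the histones. Of these, 51 had a probe set (a group of array probes read as 1 value) that names 1 gene only, and 19 appeared only in probe sets that name several genes. A gene entered the tests if its brightest probe set read above a log2 value of 4 on 3 or more arrays, which left 21 of the 70, against 12159 of 19775 genes on the array as a whole. By family, 2 of 11 linker histone (H1) genes passed, as did 6 of 15 H2A, 8 of 17 H2B, 1 of 11 H3 and 4 of 16 H4 genes. The filter keeps genes that are bright in any group, so the 21 tested genes do not stand for all 70.

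Pairs of H2A, H2B, H3 and H4 form the nucleosome core, and the linker histone H1 binds where DNA enters and leaves it. Most of these genes lie in clusters of near-identical copies, are transcribed in S phase to package newly made DNA, and give mRNAs that end in a stem-loop in place of a poly(A) tail. Stem-loop binding protein and the U7 small nuclear ribonucleoprotein form that end, and UPF1 and other factors degrade the mRNA when DNA synthesis stops. Some members also give polyadenylated mRNA, above all in cells that have left the cell cycle, and a few, H1-10 among them, are expressed outside S phase. The labelling kit used here copies RNA from its 3' end, a step that starts on the poly(A) tail.

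The cells were LNCaP and 22Rv1, both established human prostate cancer lines, and each of the 6 groups had 3 arrays. LNCaP overexpression and 22Rv1 overexpression cells carried a lentiviral vector with the coding cDNA of ONECUT2, a homeobox transcription factor, and LNCaP control and 22Rv1 control cells had the treatment label vehicle. 22Rv1 cells labelled ONECUT2 shRNA and 22Rv1 cells labelled scramble carried lentiviral hairpins, and the transduced cells were selected on puromycin as stable lines. The protocol names 2 ONECUT2 hairpin clones and a non-target plasmid. The number in the scramble titles ends the identifier of neither clone. No label tells whether replicate arrays stem from different cultures; the p-values therefore rest on array-to-array spread, part or all of which may be technical.

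ONECUT2 itself went against 1 label. Its brightest probe set read 8.46, 9.0 and 9.12 on the 22Rv1 arrays labelled ONECUT2 shRNA, against 6.63, 6.71 and 7.08 on those labelled scramble, a log2 difference of 2.05 ± 0.16 (SE, limma adjusted p = 7.32e-08). It was higher by 0.54 in 22Rv1 overexpression than in 22Rv1 control and by 0.66 in LNCaP overexpression than in LNCaP control (limma adjusted p = 0.00702 and 0.00153). Against 22Rv1 control, scramble stood lower (-1.41, limma adjusted p = 8.84e-06) and the arrays labelled ONECUT2 shRNA higher (0.65, limma adjusted p = 0.0265). The direction of each comparison that uses these arrays therefore rests on the labels; were the pair of labels exchanged, the sign of every difference between them would turn. Another of the 5 ONECUT2 probe sets was under 4 on all control arrays and rose by at least 2.61 in LNCaP and at least 0.38 in 22Rv1 overexpression on the log2 scale, and a further one had a change of -0.97 in 22Rv1 overexpression. Array medians lay between 3.26 and 3.34, and replicate arrays correlated at 0.996 or more in 5 groups; in LNCaP overexpression the correlation went down to 0.975, and replicate 1 was nearest to the LNCaP controls. Of 7 luminal prostate markers with a probe set, KRT18, EPCAM and HOXB13 were above 8 on every array. In LNCaP overexpression 3 of the 7 were called lower and 2 higher, beside 28.0 percent and 34.1 percent of all genes. In 22Rv1 overexpression 4 were called lower and 2 higher, beside 24.3 percent and 36.5 percent of all genes. KLK3 averaged 6.57 in LNCaP overexpression and 13.25 in LNCaP control, KLK2 4.30 and 11.24, and FOLH1 3.71 and 6.69. In 22Rv1, KLK3 averaged 4.29 with overexpression and 7.31 in control, and 5.64 on the arrays labelled ONECUT2 shRNA and 10.04 in scramble. By contrast, the basal markers KRT5 and KRT14 and the leukocyte markers PTPRC, CD3E and LYZ were under 4 on every array. So were the endothelial markers PECAM1 and CDH5, while the endothelial marker VWF averaged 4.22 in LNCaP control and read at most 4.50. Of 5 stromal markers, COL1A1 read between 7.38 and 11.997 and was higher in both overexpression groups, by 3.64 in LNCaP and 2.12 in 22Rv1, while COL1A2 read at most 2.71. DCN read between 3.07 and 4.34. ACTA2 averaged 6.24 in LNCaP overexpression and 6.46 in LNCaP control, and 3.98 in 22Rv1 overexpression and 4.10 in 22Rv1 control. Neither difference was called (limma adjusted p = 0.358 and 0.617). ACTA2 was called lower on the arrays labelled ONECUT2 shRNA, at 3.47, than in scramble, at 4.26 (limma adjusted p = 0.00727). LUM averaged 2.41 in 22Rv1 overexpression and 5.65 in 22Rv1 control, 1.83 in LNCaP overexpression and 2.32 in LNCaP control, and 4.04 on the arrays labelled ONECUT2 shRNA and 7.37 in scramble. The summed stromal level was 25.2 to 25.5 in LNCaP overexpression, 22.3 to 22.6 in LNCaP control, 21.7 to 22.2 in 22Rv1 overexpression, 23.5 to 24.2 in 22Rv1 control, 21.2 to 22.1 on the arrays labelled ONECUT2 shRNA and 25.1 to 26.1 in scramble. The part of these markers in the histone values was not tested.

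Promoters of 6 members on which the results turn are shown first, each as the 250 bases before the gene's start in RefSeq (build GRCh38.p14), 5' to 3' on the gene's strand. Capitals mark the CCAAT box, the TATA box written as TATAAA, the octamer known from H2B promoters, written as ATTTGCAT, and the AC box known from H1 promoters, written as AAACACA, each on either strand. H2AC6 and H2BC21 changed most, H2BC5 rose by similar amounts in both lines, H1-2 and H1-10 are the linker histones that passed the filter, and H4C8 is the H4 gene that moved in all 3 main comparisons.
H2AC6 promoter, chr6:26123922-26124171, plus strand: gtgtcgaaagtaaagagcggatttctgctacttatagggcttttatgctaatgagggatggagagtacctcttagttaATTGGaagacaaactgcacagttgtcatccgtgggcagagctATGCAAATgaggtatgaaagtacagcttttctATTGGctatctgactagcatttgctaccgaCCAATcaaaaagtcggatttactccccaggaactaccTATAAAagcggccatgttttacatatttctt
H2BC21 promoter, chr1:149886683-149886932, minus strand: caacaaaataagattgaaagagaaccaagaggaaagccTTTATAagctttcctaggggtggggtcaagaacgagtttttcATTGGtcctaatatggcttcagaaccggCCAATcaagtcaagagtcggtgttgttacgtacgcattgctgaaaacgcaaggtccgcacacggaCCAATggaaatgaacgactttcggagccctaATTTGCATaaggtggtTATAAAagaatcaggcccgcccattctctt
H2BC5 promoter, chr6:26157871-26158120, plus strand: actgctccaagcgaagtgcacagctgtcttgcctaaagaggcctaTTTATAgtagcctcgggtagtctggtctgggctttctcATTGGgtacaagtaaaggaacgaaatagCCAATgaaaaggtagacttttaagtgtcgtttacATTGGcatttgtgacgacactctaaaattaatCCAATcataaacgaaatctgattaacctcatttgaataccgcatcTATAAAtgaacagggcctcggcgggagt
H1-2 promoter, chr6:26056471-26056720, minus strand: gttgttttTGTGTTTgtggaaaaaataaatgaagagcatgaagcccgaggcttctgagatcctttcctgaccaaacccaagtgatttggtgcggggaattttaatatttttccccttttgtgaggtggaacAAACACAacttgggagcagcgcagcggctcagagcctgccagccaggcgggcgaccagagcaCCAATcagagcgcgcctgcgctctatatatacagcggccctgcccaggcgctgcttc
H4C8 promoter, chr6:26285535-26285784, minus strand: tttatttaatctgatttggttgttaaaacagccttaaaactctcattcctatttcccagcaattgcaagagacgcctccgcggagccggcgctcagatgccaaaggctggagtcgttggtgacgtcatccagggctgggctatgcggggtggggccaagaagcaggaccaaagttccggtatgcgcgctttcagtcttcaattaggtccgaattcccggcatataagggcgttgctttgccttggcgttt
H1-10 promoter, chr3:129316287-129316536, minus strand: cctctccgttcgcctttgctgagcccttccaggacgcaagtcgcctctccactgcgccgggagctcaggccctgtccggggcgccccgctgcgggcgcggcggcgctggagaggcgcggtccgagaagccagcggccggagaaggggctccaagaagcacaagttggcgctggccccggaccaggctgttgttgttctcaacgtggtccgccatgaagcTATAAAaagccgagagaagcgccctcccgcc
Of the 21 tested genes, 20 had an entry in the promoter table. CCAAT was in 15 of these 20 windows and in 33.04% of all 27305 windows, and TATAAA was in 13 and in 11.13%. The octamer was in 9 of the 20 and in 1.66% of all windows; those 9 were H2A and H2B genes. AAACACA was in the window of H1-2 alone among the 20 (4.95% of all). ATTGAT, a core letter order known for ONECUT factors, was in the windows of H2AC17 and H4C11 (5.69% of all), and ATCGAT, the other known form, in none (0.67% of all). Overlapping matches of different motifs were each counted, and a match describes letters, not binding. The H4C8 window held none of the marked motifs and that of H1-10 only TATAAA. The tested genes lay mostly in the clusters on chromosome 6, which held 17 of the 21. H2BC4 and H2AC6 are next to each other there, as are H2AC15 and H2BC15, and H2BC6 and H4C4.

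The 6 groups stood apart in the level of the tested histone genes. The mean over the 21 genes was 9.08 to 9.34 per array in LNCaP overexpression, 7.67 to 7.71 in LNCaP control, 6.65 to 6.80 in 22Rv1 overexpression, 6.40 to 6.52 in scramble, 5.11 to 5.20 in 22Rv1 control and 4.75 to 4.8 in the 22Rv1 arrays labelled ONECUT2 shRNA. The arrays of 1 group did not overlap those of any other. The highest group mean was in LNCaP overexpression for 19 of the 21 genes, beside 2808 of all 12159 genes tested. The exceptions, H1-10 and H4C4, were highest in scramble. H2AC8, H2BC15 and H4C5 passed the filter on LNCaP arrays alone, so the filter favoured a LNCaP group as their highest. The lowest was in the arrays labelled ONECUT2 shRNA for 14 genes, beside 1697 of all 12159 genes tested. In bulk RNA, fewer cells that express a gene and less of its RNA per cell cannot be told apart. These are deposited log2 values, and levels are compared between groups for 1 gene at a time, since probe sets differ in brightness.

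**Figure D1:**
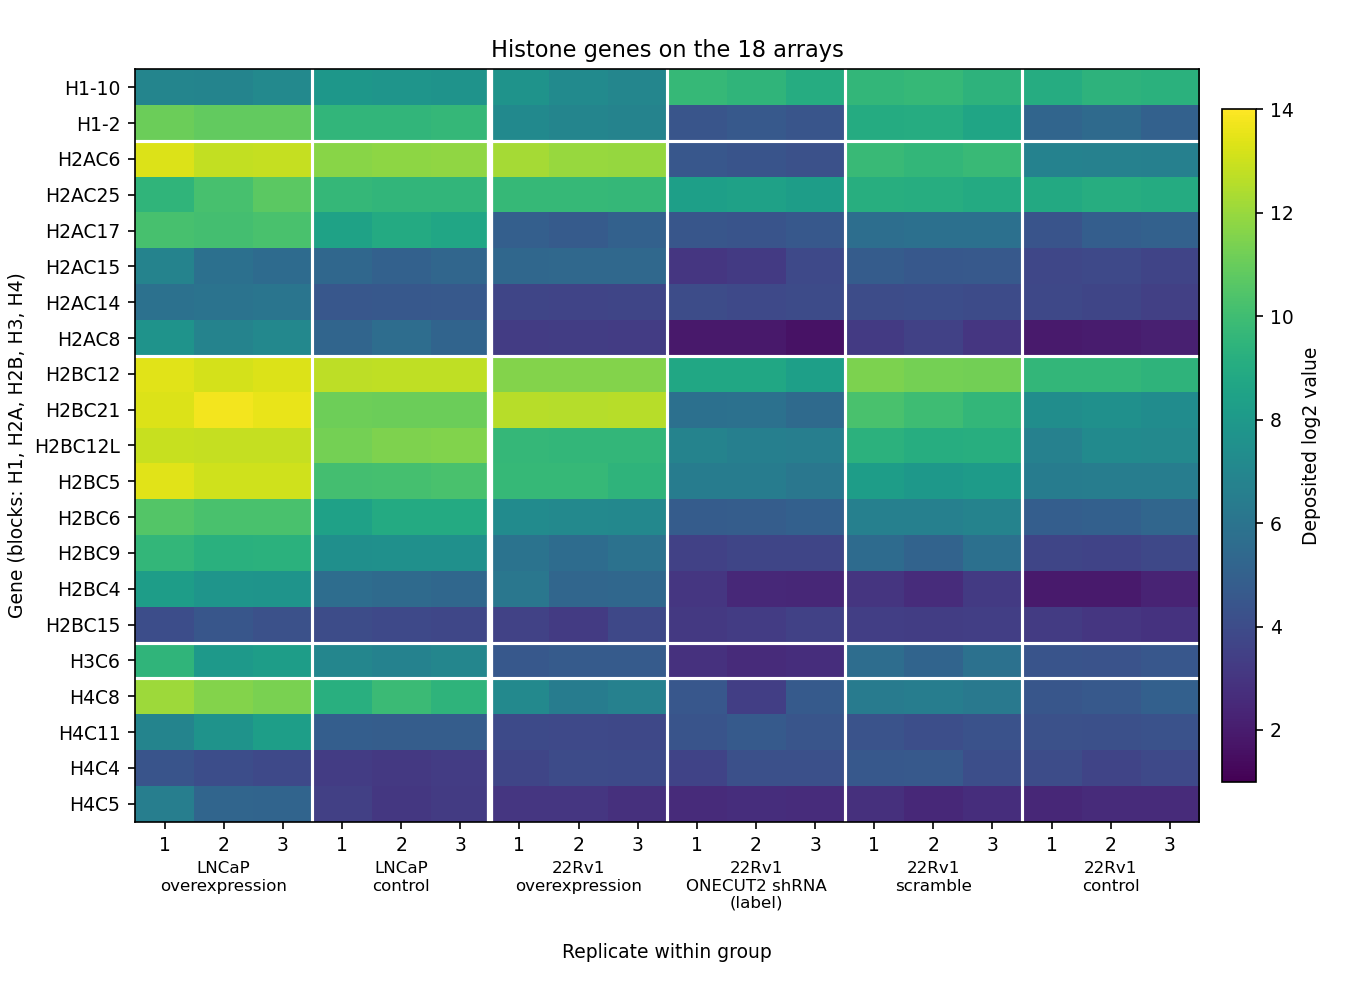
Deposited log2 value (colour) of the 21 tested histone genes (rows, in blocks for H1, H2A, H2B, H3 and H4, each by falling mean) on the 18 arrays (columns, 3 replicates in each of 6 groups). LNCaP overexpression is brightest for most rows, and H1-10, the top row, is darkest in both overexpression groups.

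In 22Rv1 cells with ONECUT2 overexpression, 14 of the 21 histone genes were called higher than in 22Rv1 control (limma, adjusted p under 0.05 over all 12159 genes) and 1, H1-10, was called lower. Among all genes, 36.5 percent were called higher and 24.3 percent lower. The median log2 change of the 21 genes was 1.61, beside 0.10 over all genes tested. The calls higher took in all 8 H2B genes, 4 of 6 H2A genes, H1-2 and 1 of 4 H4 genes, while H3C6, the H3 gene tested, did not pass the test. H2AC8 and H2BC15 were under 4 on every array of both groups, where values give no order, which leaves 12 calls higher.

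In LNCaP cells with ONECUT2 overexpression, 20 of the 21 were called higher than in LNCaP control and H1-10 was again the 1 called lower. Among all genes, 34.1 percent were called higher and 28.0 percent lower. The median change was 1.49, beside 0.09 over all genes. All tested H2A, H2B, H3 and H4 genes rose, with H1-2. H4C5 was above 4 on the 3 LNCaP overexpression arrays alone, so the filter chose it by its level in the group tested. H2BC15 passed the filter on those arrays and 1 LNCaP control array. Without LNCaP overexpression replicate 1, the counts were again 20 and 1.

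In the 22Rv1 arrays labelled ONECUT2 shRNA, none of the 21 was called higher and 14 were called lower than in scramble (limma; 15 had an unadjusted p under 0.05 in either direction). Among all genes, 13.4 percent were called higher and 16.1 percent lower. The median change was -1.47, beside -0.03 over all genes. Those called lower were H1-2, 5 of 6 H2A genes, 6 of 8 H2B genes, H3C6 and H4C8, and without H2AC8, under 4 on all these arrays, 13. Scramble also differed from 22Rv1 control: 16 of the 21 were called higher in scramble than in 22Rv1 control and none lower (limma; 12.5 percent and 9.40 percent of all genes), with a median change of 1.15; 14 remained without H2AC8 and H2BC4, which were under 4 in both groups. Set against 22Rv1 control instead, the arrays labelled ONECUT2 shRNA had 5 histone genes lower (H1-2, H2AC6, H2BC12, H2BC21 and H3C6) and none higher (limma; 9 had an unadjusted p under 0.05; 2.11 percent of all genes were called lower and 2.35 percent higher), with a median change of -0.24. These 3 comparisons share arrays.

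In 12 genes all 3 main comparisons gave a call, higher in both overexpression groups and lower on the arrays labelled ONECUT2 shRNA: H1-2, H2AC6, H2AC8, H2AC15, H2AC25, H2BC5, H2BC6, H2BC9, H2BC12, H2BC12L, H2BC21 and H4C8. Of these, H2AC8 was under 4 on every 22Rv1 array. How many of all 12159 genes gave the same 3 calls was not counted, so the 12 cannot be set against a share of all genes. ONECUT2 itself was higher on the arrays labelled ONECUT2 shRNA than in scramble, by a log2 difference of 2.05, against that label. H2BC4 and H2BC15 were called higher in both lines but not called against scramble. H2AC17 and H3C6 were called higher in LNCaP overexpression and lower against scramble, and H2AC14, H4C4, H4C5 and H4C11 were called only in LNCaP overexpression among the 3.

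**Figure D2:**
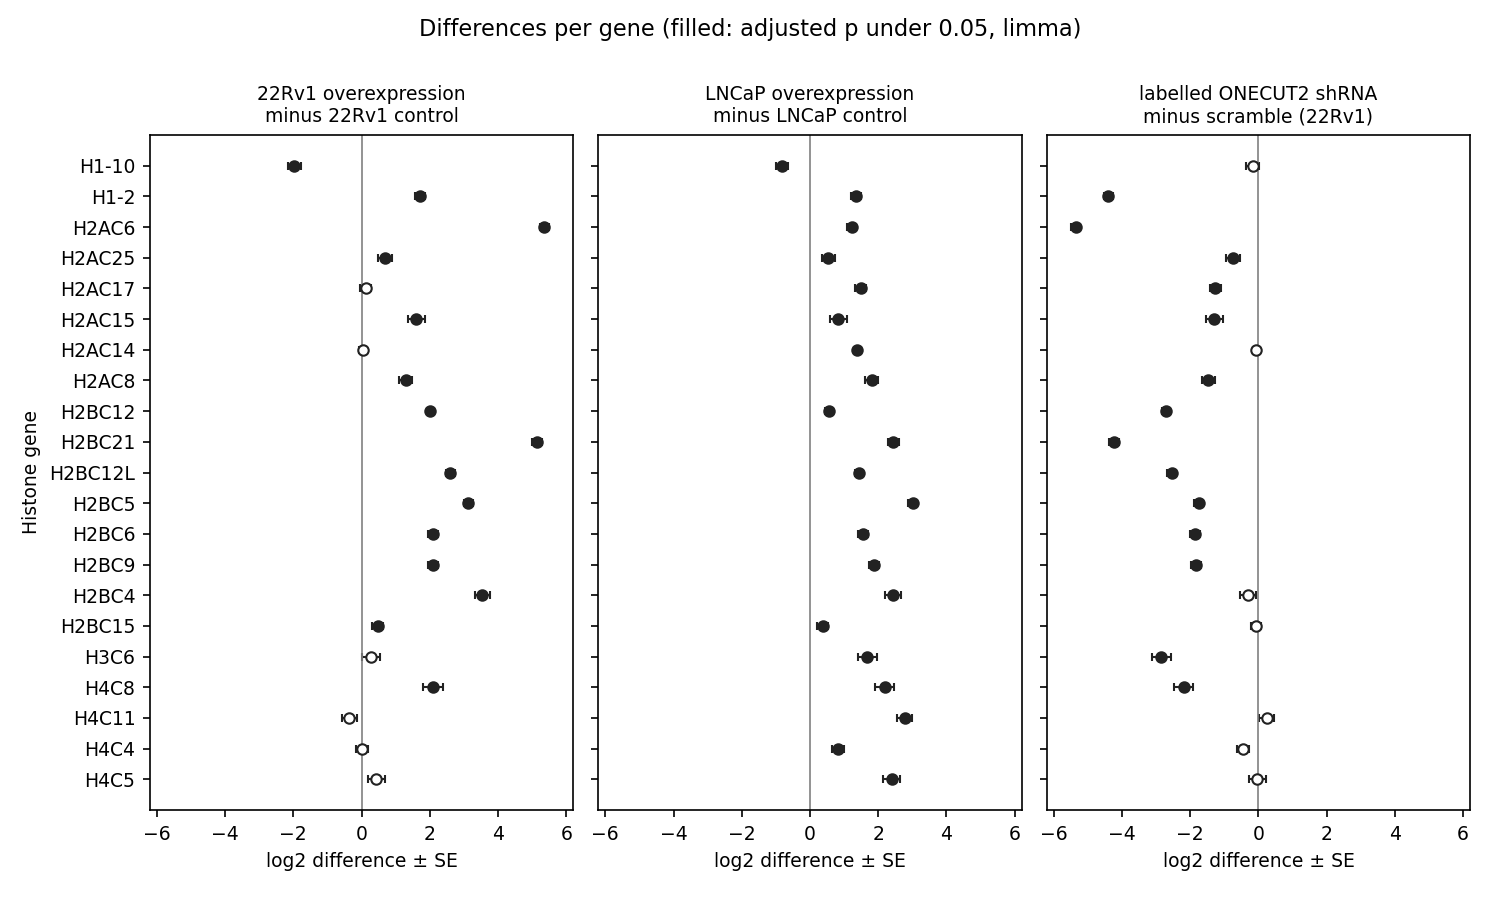
log2 difference (x axis, points with SE bars from limma) of each of the 21 histone genes (y axis) in 22Rv1 overexpression minus control, LNCaP overexpression minus control, and 22Rv1 arrays labelled ONECUT2 shRNA minus scramble; filled points were called. In both overexpression panels the filled points lie right of 0 except H1-10, and in the third panel every filled point lies left of 0.

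The linker histones that passed the filter moved in opposite directions. H1-2, a linker histone of the S phase kind, read 7.15, 6.90 and 6.81 in 22Rv1 overexpression, against 5.22, 5.51 and 5.02 in 22Rv1 control. In LNCaP it read 11.07, 10.88 and 10.88 with overexpression, against 9.57, 9.56 and 9.64 in control. The groups did not overlap in either line, and the log2 changes were 1.70 ± 0.14 and 1.35 ± 0.14 (SE, limma adjusted p = 3.92e-08 and 5.14e-07).

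H1-2 had its largest change in the hairpin pair. It read 4.44, 4.64 and 4.45 on the arrays labelled ONECUT2 shRNA, against 9.0, 9.06 and 8.66 on scramble arrays, a 21.1-fold lower level (log2 change -4.40 ± 0.14, SE, limma adjusted p = 4.28e-12). Scramble stood 3.66 above 22Rv1 control on the log2 scale (limma adjusted p = 2.35e-10), and the arrays labelled ONECUT2 shRNA stood below that control by a smaller step (-0.74, limma adjusted p = 0.00701).

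H1-10, which encodes the linker histone H1X and is known for expression outside S phase, went the other way. It read 7.70, 7.20 and 6.98 in 22Rv1 overexpression, against 9.06, 9.43 and 9.29 in 22Rv1 control. In LNCaP it read 6.94, 6.84 and 7.11 with overexpression, against 7.90, 7.79 and 7.66 in control. All overexpression arrays lay below their controls, by a log2 change of -1.97 ± 0.18 in 22Rv1 and -0.82 ± 0.18 in LNCaP (SE, limma adjusted p = 1.3e-07 and 0.00104). On the arrays labelled ONECUT2 shRNA it read 9.70, 9.49 and 9.05, overlapping the 9.60, 9.73 and 9.42 of scramble, and the difference of -0.17 was not called (limma adjusted p = 0.536). A gene on the opposite strand, H1-10-AS1, meets the symbol rule too and stayed below the filter.

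The other linker histone genes were dim. The next 4 by mean level, H1-3, H1-6, H1-5 and H1-4, failed the filter. Their group means lay between 3.56 and 3.98 for H1-3, 2.68 and 3.09 for H1-6, 2.69 and 3.01 for H1-5, and 2.17 and 2.92 for H1-4. Values this low give no order between groups. H1-3 was among the genes just outside the filter, with a third-highest array at 3.91, and H2BC15 was the gene just inside, at 4.05. Of the 30 histone genes below the filter, 4 had any array above 4 and the highest value was 4.28.

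Among H2A genes, H2AC6 had the largest change of any member. It read 12.24, 12.004 and 11.94 in 22Rv1 overexpression, against 6.74, 6.71 and 6.69 in 22Rv1 control, a 40.7-fold higher level (log2 change 5.35 ± 0.13, SE, limma adjusted p = 1.51e-13). In LNCaP, where the gene was already bright, it read 13.32, 12.79 and 12.88 with overexpression, against 11.68, 11.79 and 11.85 in control. That is a log2 change of 1.22 ± 0.13 (SE, limma adjusted p = 6.4e-07), with no overlap between the groups.

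On the arrays labelled ONECUT2 shRNA, H2AC6 read 4.53, 4.39 and 4.23, against 9.79, 9.59 and 9.83 on scramble arrays. The level was 40.9-fold lower (log2 change -5.36 ± 0.13, SE, limma adjusted p = 1.55e-13). Scramble was above 22Rv1 control by 3.03, and the arrays labelled ONECUT2 shRNA were below it (-2.33, limma adjusted p = 2.46e-08).

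H2AC8 was dim in 22Rv1 and bright in LNCaP. It read 7.66, 6.80 and 7.07 in LNCaP overexpression, against 5.26, 5.66 and 5.19 in LNCaP control, a log2 change of 1.81 ± 0.19 (SE, limma adjusted p = 3.79e-07). In all 22Rv1 groups it was under 4 on every array, so its calls there are given no fold. H2AC15 was called higher in 22Rv1 overexpression, at least 2.59-fold since all 3 control arrays were under 4 and the bound is taken from 4 (limma adjusted p = 3.95e-05). H2AC15 rose by 0.83 in LNCaP overexpression, where replicate 1 read 6.82 and the others 5.82 and 5.55. H2AC25 lies on chromosome 1 and had smaller changes, 0.69 in 22Rv1 overexpression, 0.54 in LNCaP overexpression and -0.74 against scramble. Its LNCaP overexpression arrays at 9.48, 10.22 and 10.71 overlapped the controls at 9.57 to 9.67, and the call ended without LNCaP overexpression replicate 2 or 3 or LNCaP control replicate 2 or 3 (limma adjusted p = 0.0694, 0.194, 0.0672 and 0.067).

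H2AC17 and H2AC14 were called with overexpression in LNCaP and not in 22Rv1. H2AC17 read 10.22, 10.11 and 10.26 in LNCaP overexpression, against 8.48, 8.93 and 8.70 in LNCaP control, while in 22Rv1 it read 4.91, 4.71 and 5.05 with overexpression and 4.35, 4.90 and 5.05 in control. H2AC14 rose by 1.39 in LNCaP overexpression (limma adjusted p = 8.38e-09) and was under 4 on all overexpression and control arrays of 22Rv1. The difference between lines is tested further on.

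All 8 H2B genes were called higher with overexpression in both lines, H2BC15 in 22Rv1 on values under 4. H2BC21, which is known to give both stem-loop and polyadenylated mRNA, read 12.59, 12.54 and 12.59 in 22Rv1 overexpression, against 7.39, 7.53 and 7.33 in 22Rv1 control. The level was 35.6-fold higher (log2 change 5.15 ± 0.15, SE, limma adjusted p = 5.03e-13). In LNCaP it read 13.29, 13.77 and 13.55 with overexpression, against 11.11, 11.10 and 11.06 in control, a change of 2.45. In neither line did the groups overlap. It read 5.82, 5.84 and 5.49 on the arrays labelled ONECUT2 shRNA, against 10.27, 9.95 and 9.61 on scramble arrays, an 18.7-fold lower level (limma adjusted p = 1.17e-11).

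H2BC5 had the largest change in LNCaP. It read 13.43, 13.08 and 13.08 in LNCaP overexpression, against 10.11, 10.17 and 10.28 in LNCaP control, an 8.04-fold higher level (limma adjusted p = 5.51e-12). In 22Rv1 it read 9.73, 9.70 and 9.43 with overexpression, against 6.46, 6.51 and 6.50 in control, an 8.76-fold higher level (limma adjusted p = 1.32e-11). The change was near 3 on the log2 scale in each line, and the groups stood apart. Against scramble it fell by 1.75, to 6.46, 6.44 and 6.17 on the arrays labelled ONECUT2 shRNA, close to the 22Rv1 control arrays. A second probe set of H2BC5 had the same calls, with log2 changes of 1.84 in 22Rv1 overexpression, 2.29 in LNCaP overexpression and -1.46 against scramble.

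H2BC4, the neighbour of H2AC6, was not above 4 on any control, scramble or labelled ONECUT2 shRNA array of 22Rv1. It read 6.13, 5.31 and 5.35 in 22Rv1 overexpression, against 1.93, 1.95 and 2.28 in 22Rv1 control, at least 3.03-fold higher (limma adjusted p = 1.69e-09). In LNCaP it read 8.26, 7.77 and 7.75 with overexpression, against 5.63, 5.48 and 5.36 in control, a change of 2.44. All overexpression arrays were above all control arrays in both lines. Against scramble no change was called, with both groups under 4.

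H2BC12L, on chromosome 21, read 9.64, 9.61 and 9.62 in 22Rv1 overexpression, against 6.72, 7.24 and 7.09 in 22Rv1 control, a log2 change of 2.60. Against scramble it fell by 2.54, to 6.82, 6.61 and 6.54 on the arrays labelled ONECUT2 shRNA, where scramble read 9.37, 9.08 and 9.15. H2BC12 read 11.58, 11.58 and 11.60 in 22Rv1 overexpression, against 9.62, 9.63 and 9.44 in 22Rv1 control. H2BC12 was 6.55-fold lower on the arrays labelled ONECUT2 shRNA, at 8.74, 8.73 and 8.35, against 11.45, 11.28 and 11.22 on scramble arrays (limma adjusted p = 4.49e-11). In both genes the groups were far apart beside their own spread.

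H2BC6 and H2BC9 had changes of similar size. H2BC6 read 7.28, 7.11 and 7.06 in 22Rv1 overexpression, against 4.90, 5.01 and 5.28 in 22Rv1 control, and 4.78, 4.81 and 5.00 on the arrays labelled ONECUT2 shRNA, against 6.68, 6.66 and 6.83 on scramble arrays. H2BC9 read 5.94, 5.59 and 5.88 in 22Rv1 overexpression, against 3.72, 3.59 and 3.81 in 22Rv1 control, at least 3.49-fold higher. In LNCaP, H2BC9 read 9.60, 9.28 and 9.28 with overexpression, against 7.49, 7.5 and 7.54 in control. The 22Rv1 levels on the labelled ONECUT2 shRNA arrays lay near those of 22Rv1 control for both genes, with differences of -0.20 and -0.05 that were not called (limma adjusted p = 0.551 and 0.915). H2BC15 was under 4 on every 22Rv1 array, so its call there is given no size, and that call ended without 22Rv1 control replicate 3 or 22Rv1 overexpression replicate 3 (limma adjusted p = 0.0692 and 0.09). In LNCaP it differed by 0.37, and 9 of its 13 alternatives ended the call (limma adjusted p between 0.0133 and 0.193).

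**Figure D3:**
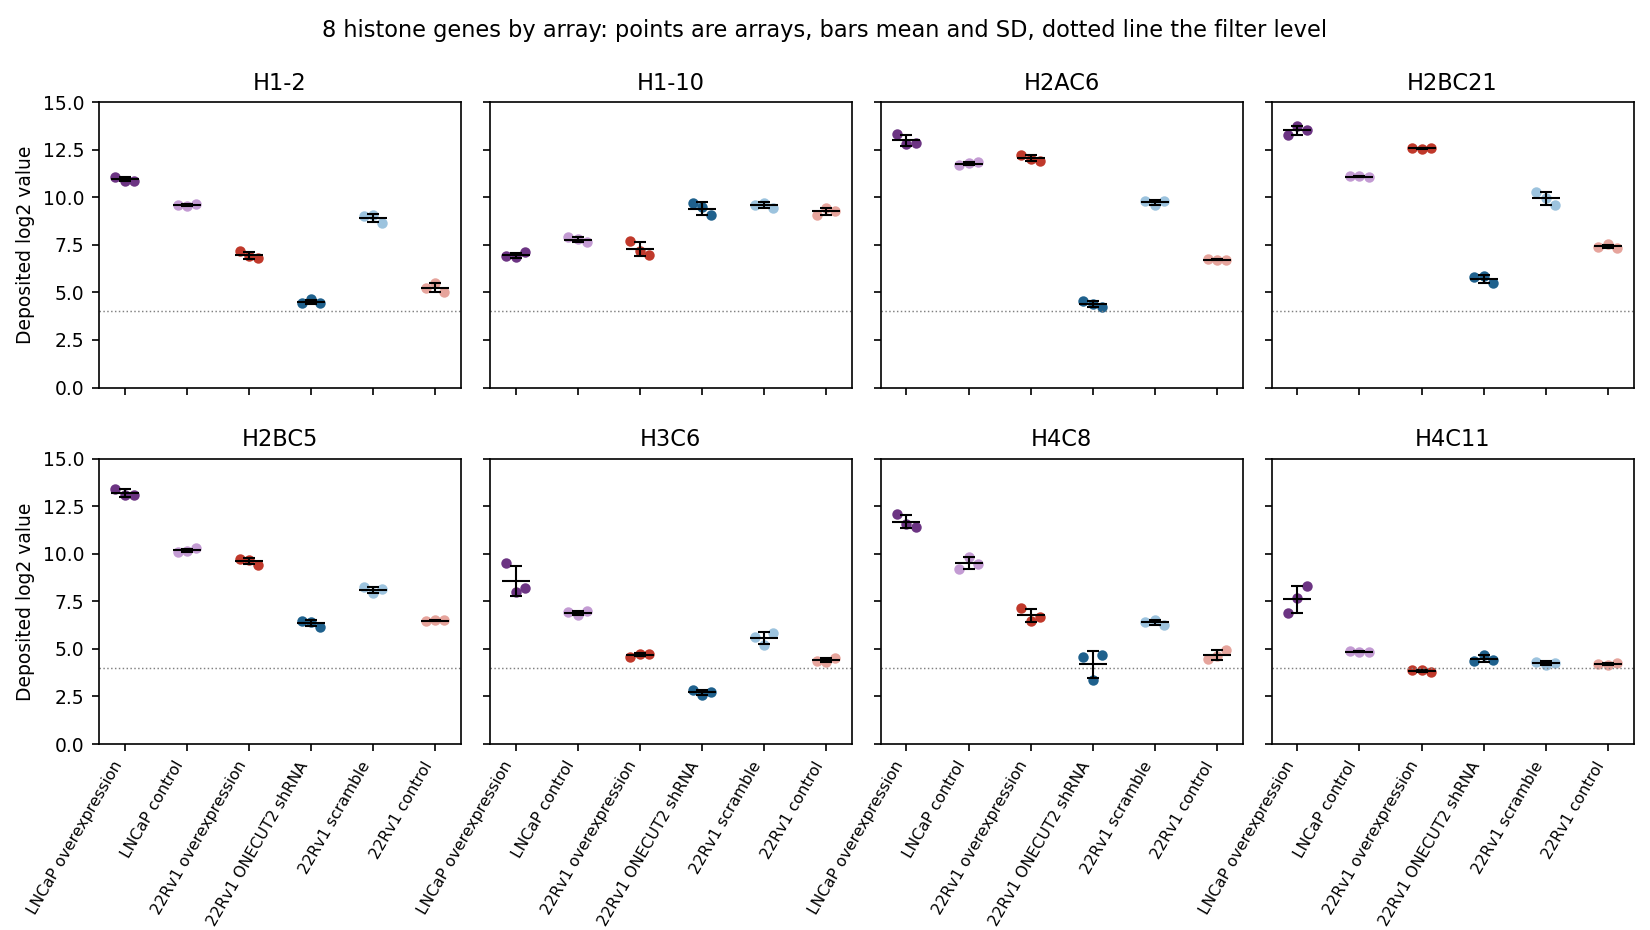
Deposited log2 value (y axis) of 8 histone genes on each array, in 6 groups (x axis). Points are arrays, bars give the mean and SD (n = 3), and the dotted line is the filter level of 4; H2AC6 and H2BC21 in 22Rv1 overexpression reach the range of LNCaP control or higher, and H1-10 is lowest in the overexpression groups.

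H3C6 was the 1 H3 gene that passed the filter; 7 others had a probe set of their own and stayed below it. It read 9.50, 8.02 and 8.22 in LNCaP overexpression, against 6.96, 6.77 and 6.98 in LNCaP control, a 3.20-fold higher level (limma adjusted p = 5.08e-05). In 22Rv1 it read 4.60, 4.73 and 4.73 with overexpression, against 4.38, 4.33 and 4.52 in control. These groups did not overlap, but the difference of 0.27 ± 0.27 (SE) was not called (limma adjusted p = 0.399). H3C6 read 2.86, 2.58 and 2.71 on the arrays labelled ONECUT2 shRNA, against 5.63, 5.21 and 5.84 on scramble arrays, at least 2.94-fold lower.

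Among H4 genes, H4C8 changed in all 3 main comparisons. It read 7.14, 6.48 and 6.70 in 22Rv1 overexpression, against 4.48, 4.61 and 4.96 in 22Rv1 control, a 4.26-fold higher level. In LNCaP it read 12.09, 11.59 and 11.41 with overexpression, against 9.23, 9.84 and 9.47 in control. On the arrays labelled ONECUT2 shRNA it read 4.55, 3.39 and 4.66, against 6.43, 6.50 and 6.24 on scramble arrays. The log2 changes were 2.09, 2.19 and -2.19 in that order of comparison (limma adjusted p = 9.66e-06, 5.89e-06 and 2.97e-05), and a second probe set had the same calls (3.14, 2.35 and -2.69).

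H4C11, H4C5 and H4C4 were called higher in LNCaP overexpression and not called in 22Rv1. H4C11 read 6.89, 7.66 and 8.31 in LNCaP overexpression, against 4.89, 4.83 and 4.83 in LNCaP control, a 6.82-fold higher level (limma adjusted p = 2.75e-08). In 22Rv1 it read 3.90, 3.89 and 3.80 with overexpression and 4.22, 4.16 and 4.27 in control. H4C5 read 6.55, 5.26 and 5.18 in LNCaP overexpression, against 3.47, 3.11 and 3.24 in LNCaP control, at least 3.17-fold higher. It passed the filter on the LNCaP overexpression arrays alone. It stayed under 4 in every 22Rv1 group, and H4C4 lay between 3.16 and 4.65 on all 18 arrays.

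The effect of overexpression differed between the lines in 13 of the 21 genes. By the interaction contrast in limma, 7 had a higher effect in LNCaP than in 22Rv1 and 6 a lower one, beside 18.1 percent and 26.6 percent of all genes. The lower ones were H2AC6 (-4.12 ± 0.19, SE), H2BC21 (-2.71 ± 0.21), H2BC12, H2BC12L, H2BC6 and, by the fitted values, H2BC4. In LNCaP control H2AC6, H2BC21, H2BC12 and H2BC12L already averaged 11.77, 11.09, 12.74 and 11.44. In 22Rv1 control they averaged 6.71, 7.42, 9.57 and 7.02. The part of these starting levels, and of the actin control values given further on, in the difference between lines was not tested. The direction for H2BC4 is not settled, since its 22Rv1 control arrays were under 4 and its change there is known only as at least 1.60, against 2.44 in LNCaP. The higher ones were H4C11, H3C6, H2AC17, H1-10 and 3 genes whose fitted differences rest on groups wholly under 4 (H2AC14, H4C4 and H4C5) and are given no size here. H4C11 had a fitted difference of 3.13 ± 0.32. Its 22Rv1 overexpression arrays were also all under 4, so this is no measured size. For H2BC5 the difference was -0.12 and not called (limma adjusted p = 0.599), and for H1-2 it was -0.35 (limma adjusted p = 0.169).

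**Figure D4:**
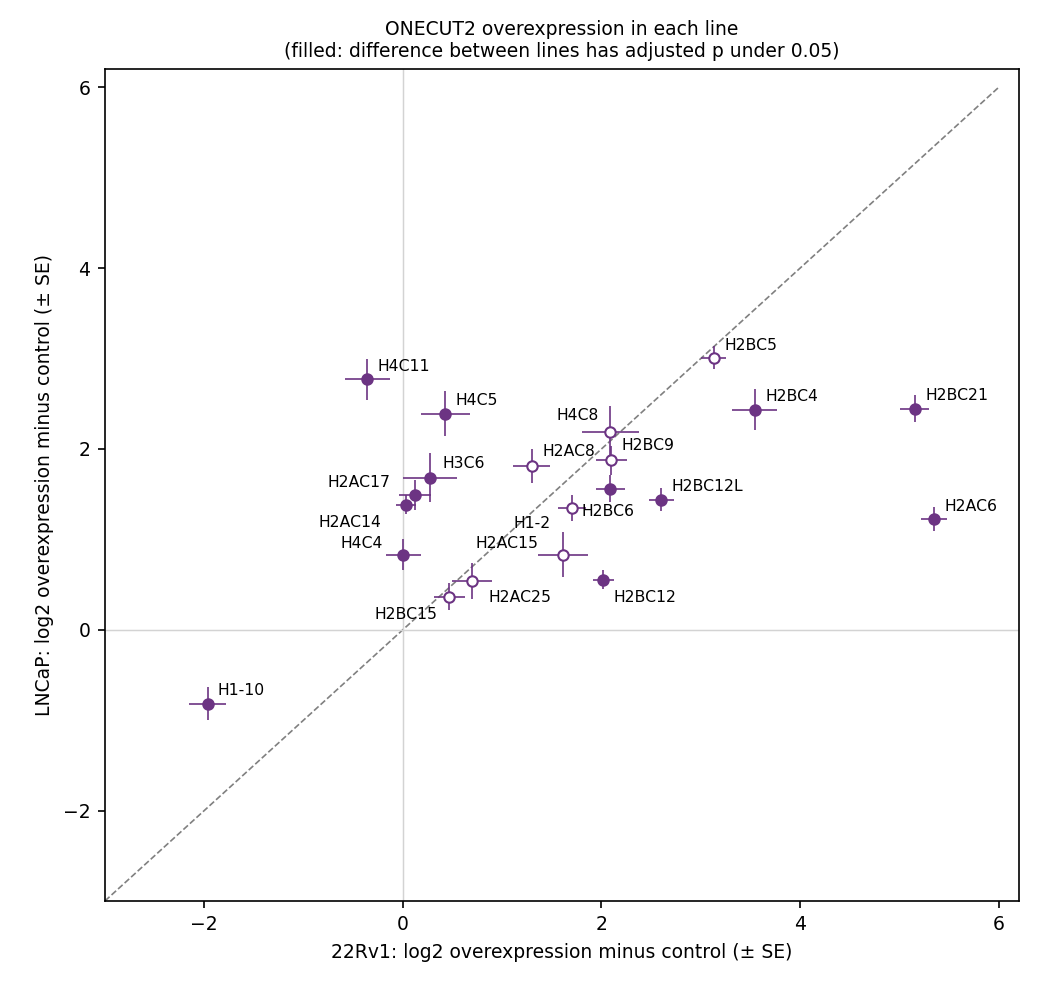
log2 change with ONECUT2 overexpression in LNCaP (y axis) and in 22Rv1 (x axis) for the 21 histone genes, with SE bars; the dashed line marks equal changes and filled points differ between the lines. H2AC6 and H2BC21 lie far right of the line, H4C11 and H4C5 above it, and H1-10 is below 0 on both axes.

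The lines differed before any overexpression. Of the 21 genes, 19 were higher in LNCaP control than in 22Rv1 control and 2, H1-10 and H4C4, lower (limma; H4C5, among the higher, was under 4 in both; 30.2 percent and 33.5 percent of all genes were called higher and lower). H2AC8, H2BC15 and H4C5, all among the 19, passed the filter on LNCaP arrays alone. The filter thus favoured their being higher in LNCaP, and they also enter the median. The median difference was 3.34, beside -0.04 over all genes. The largest were H2AC6 at 5.06, H4C8 at 4.83, H2BC12L at 4.42 and H1-2 at 4.34. H2AC6 in 22Rv1 overexpression, at 11.94 to 12.24, read above LNCaP control, at 11.68 to 11.85. H1-2 did not reach it, at 6.81 to 7.15 in 22Rv1 overexpression, against 9.56 to 9.64 in LNCaP control.

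Several probe sets match copies within a family and name 2 or more histone genes, so their values cannot be given to 1 gene. Of 20 such probe sets 17 passed the filter. In the fit of all probe sets that passed, 13 were called higher and 1 lower in 22Rv1 overexpression, 15 higher and 1 lower in LNCaP overexpression, and none higher and 11 lower on the arrays labelled ONECUT2 shRNA against scramble (limma). Over all 21250 probe sets of that fit, 31.2 percent were called higher and 26.9 percent lower in 22Rv1 overexpression, 29.1 percent and 30.0 percent in LNCaP overexpression, and 12.4 percent and 14.6 percent against scramble. A probe set naming 10 H3 genes rose to 12.52, 12.42 and 12.51 in LNCaP overexpression, against 9.66, 9.84 and 9.57 in control, and to 8.30, 8.18 and 8.20 in 22Rv1 overexpression, against 5.54, 5.94 and 5.29 in control. It fell by 3.47 on the arrays labelled ONECUT2 shRNA against scramble (limma adjusted p = 2.94e-09).

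The exception was the brightest H4 probe set, which names 14 H4 genes. It read 8.46, 7.63 and 8.83 in LNCaP overexpression, against 12.20, 12.07 and 11.94 in LNCaP control, and 11.55, 11.14 and 11.44 in 22Rv1 overexpression, against 12.27, 12.37 and 12.27 in 22Rv1 control. These were falls in both lines, with log2 changes of -3.77 ± 0.21 and -0.93 ± 0.21 (SE, limma adjusted p = 2.76e-10 and 0.00141). Another probe set that names 14 H4 genes was higher in both lines, by 1.00 in LNCaP and 1.68 in 22Rv1. H4 probe sets that name the same number of genes moved in opposite directions in the same RNA. Among the 21 tested genes, 6 are read by a set that the maker marks as open to cross-hybridisation (H2AC14, H2BC5, H2BC6, H2BC9, H2BC12L and H4C11). The other 15 had 10, 14 and 0 calls higher and 1, 1 and 10 lower in the 22Rv1 overexpression, LNCaP overexpression and hairpin comparisons.

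Genes of the S phase programme did not move with the histone genes. Of 19 such genes, 19 were called lower in 22Rv1 overexpression and 18 in LNCaP overexpression, with none higher, and their median log2 changes were -2.09 and -3.50. Over all genes, 24.3 percent were called lower and 36.5 percent higher in 22Rv1 overexpression, and 28.0 percent and 34.1 percent in LNCaP overexpression; the list counts that follow stand beside these shares. Examples are CCNA2, the S phase cyclin (-2.68 in 22Rv1 and -4.78 in LNCaP), GINS1 of the replicative helicase (-2.21 and -3.50) and RRM1 of ribonucleotide reductase (-0.96 and -1.96). Their mean was 6.58 to 6.74 per array in LNCaP overexpression and 10.26 to 10.39 in LNCaP control, and 8.45 to 8.56 in 22Rv1 overexpression and 10.64 to 10.71 in 22Rv1 control. On the arrays labelled ONECUT2 shRNA the mean was 10.70 to 10.83, against 10.57 to 10.64 on scramble arrays. There 4 of 19 genes were called higher and none lower, beside 13.4 percent and 16.1 percent of all genes. The part of the S phase genes in the histone values was not tested.

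**Figure D5:**
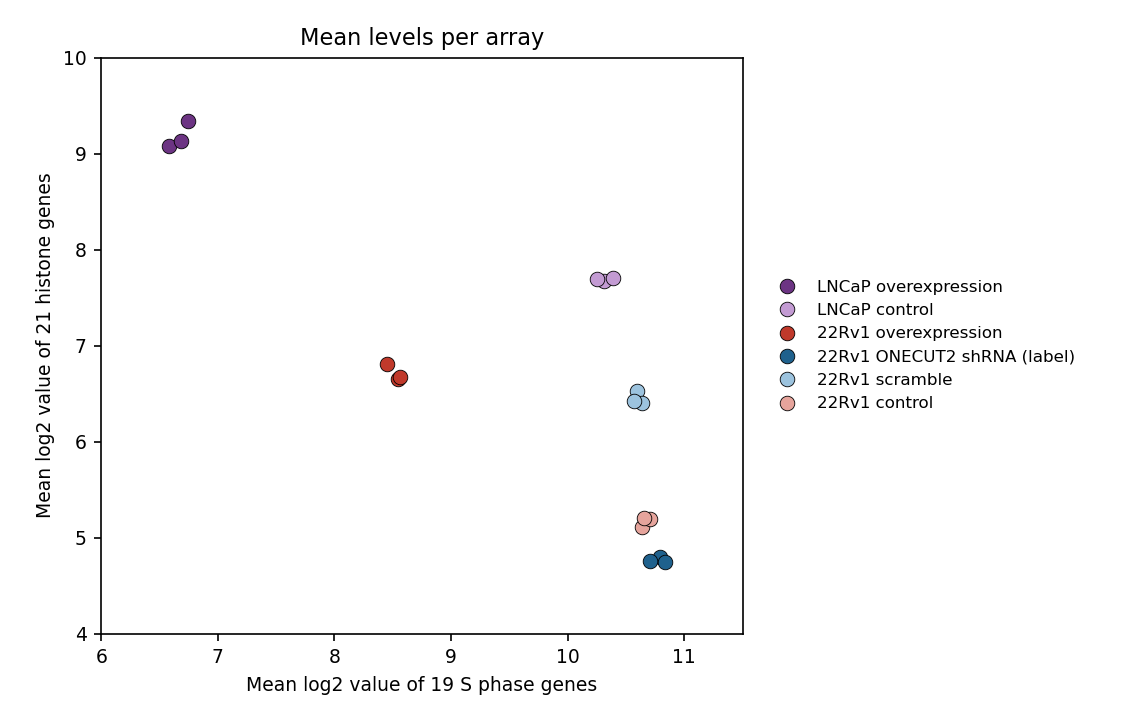
Mean log2 value of the 21 tested histone genes (y axis) and of 19 S phase genes (x axis) on each of the 18 arrays, coloured by group. Both overexpression groups lie to the left of and above their controls, and scramble lies above 22Rv1 control at nearly the same S phase level.

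Factors that form or use histone mRNA were mostly lower or not called with overexpression. Of 12 genes of histone mRNA 3' end formation, 6 fell and 1 rose in 22Rv1, and 6 fell and 2 rose in LNCaP (all genes: 24.3 percent lower and 36.5 percent higher in 22Rv1, 28.0 percent and 34.1 percent in LNCaP). SLBP, the stem-loop binding protein, had changes of -0.53 in 22Rv1 and -0.83 in LNCaP (limma adjusted p = 0.01 and 0.000342). LSM10, a U7 subunit, rose by 0.82 in 22Rv1 overexpression, and CASP8AP2 (FLASH) had a change of -1.65 in LNCaP. Against scramble 2 of the 12 rose and none fell, beside 13.4 percent and 16.1 percent of all genes. SLBP differed by -0.12 (limma adjusted p = 0.64). Of 7 histone mRNA decay genes, 4 fell in each overexpression group, with 2 higher in LNCaP (EXOSC10 and LSM1), beside the overexpression shares of all genes given above. DCP2, the decapping enzyme, changed by -1.27 in 22Rv1 and -1.05 in LNCaP, and UPF1 by -0.75 and -0.46.

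Of 10 tested genes of histone gene transcription, 4 fell and 2 rose in 22Rv1 overexpression, and 6 fell and 1 rose in LNCaP overexpression (all genes: 24.3 percent lower and 36.5 percent higher in 22Rv1, 28.0 percent and 34.1 percent in LNCaP). NPAT, the coactivator at histone loci, differed by -0.03 in 22Rv1, which was not called, and fell by 0.60 in LNCaP (limma adjusted p = 0.852 and 0.00106). CCNE2, the cyclin E2 gene whose kinase acts on NPAT, had changes of -2.26 and -3.26 in 22Rv1 and LNCaP overexpression. HINFP, an activator of H4 genes, rose by 0.79 and 0.63. Against scramble 2 of the 10 fell and none rose, beside 16.1 percent and 13.4 percent of all genes.

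Chaperones that place new histones on replicated DNA were mostly called lower with overexpression. Of 13, 10 fell and none rose in 22Rv1 overexpression, and 9 fell and 1 rose in LNCaP overexpression (all genes: 24.3 percent lower and 36.5 percent higher in 22Rv1, 28.0 percent and 34.1 percent in LNCaP). ASF1B changed by -2.82 in 22Rv1 and -4.28 in LNCaP, CHAF1A of chromatin assembly factor 1 by -1.04 and -1.95, and NASP, which binds H3 and H4, by -1.58 and -1.07. Against scramble, 1 rose and 1 fell, beside 13.4 percent and 16.1 percent of all genes. Of 7 chaperones that work outside replication, 2 fell and 1 rose in 22Rv1 overexpression and 3 fell and 1 rose in LNCaP overexpression. These counts stand beside the same shares of all genes, and 7 genes are too few to tell them from those shares. Among the genes that fell was HJURP, the CENPA chaperone (-3.15 and -4.86, with its LNCaP overexpression arrays near 4).

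Variant histones outside the symbol rule split. Of 8 tested, 4 fell and 2 rose in 22Rv1 overexpression, and 5 fell and 2 rose in LNCaP overexpression (all genes: 24.3 percent lower and 36.5 percent higher in 22Rv1, 28.0 percent and 34.1 percent in LNCaP). H2AZ1 had changes of -0.54 and -1.14, H2AX of -0.90 and -0.97, and CENPA, the centromeric H3, fell by 1.81 in 22Rv1 and was at least 4.97-fold lower in LNCaP. The genes higher in both were H2AZ2 (0.71 and 0.52) and H2AJ (1.40 and 2.29). Against scramble 1 of the 8, H2AJ, was called lower and none higher, beside 16.1 percent and 13.4 percent of all genes, so the count is near the share of all genes. The log2 change of H2AJ there was -0.97 (limma adjusted p = 0.000113).

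Actin control probe sets at the 3' and 5' ends of the transcript measure how far labelled RNA reaches, and their log2 difference was larger in 22Rv1 overexpression. It was 8.06 ± 0.70 in 22Rv1 overexpression and 4.11 ± 0.41 in 22Rv1 control (SD, n = 3 each; exact two-sided permutation p = 0.1, the smallest that 3 against 3 arrays allow). In LNCaP it was 2.85 ± 0.56 with overexpression and 2.94 ± 0.25 in control (exact permutation p = 0.8). On the arrays labelled ONECUT2 shRNA it was 4.27 ± 0.04, against 3.88 ± 0.28 on scramble arrays (exact permutation p = 0.1). Between the control lines it was 2.94 ± 0.25 in LNCaP and 4.11 ± 0.41 in 22Rv1 (exact permutation p = 0.1). The same measure on GAPDH was -0.43 ± 0.13 in 22Rv1 overexpression and -0.70 ± 0.09 in 22Rv1 control (exact permutation p = 0.1). The part of these end differences in the histone median changes and in single histone values was not tested.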

How the data were processed

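RNA from 18 samples was hybridised to 1-colour expression arrays, 1 array each. The authors deposited log2 values for 54675 probe sets, made with GCRMA per the submitters' processing notes, for which the notes state no version and no account of which arrays were normalised together. The array platform's table gave 41097 probe sets 1 symbol, 1801 several and 11777 none, controls included. Each gene took the values of its brightest probe set among those with 1 symbol (by mean over the arrays), and 12159 genes above 4 on 3 or more arrays were tested.

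All 18 arrays entered 1 limma fit (version 3.58.1, R 4.3.3, eBayes with trend and robust options), and Benjamini-Hochberg adjusted p under 0.05 over all genes was a call. Where all arrays of the lower group were under 4, folds were bounded from 4. The fitting code was tested on simulated data. The histone genes and gene lists were chosen with earlier results of these data known. The text gives arrays for the 8 largest called rises and falls of each main comparison, and for listed genes a few called members of small p plus SLBP, NPAT, CHAF1A, ASF1B and H2AZ1. In no comparison were all 3 correlations of the deviations of samples with the same replicate number over 0.1, so numbers were not used as pairs. Single numbers did deviate together. Replicates 2 and 3 of scramble and 22Rv1 control correlated at 0.43 and 0.34, and replicate 3 of the hairpin pair at 0.32. Alternatives changed the scaling, filter, probe set choice, arrays fitted, moderation, replicate block and arrays left out. The number of arrays limits the precision.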

Additional observations from a re-analysis of the deposited data

Results flagged for a closer look

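The effect of ONECUT2 overexpression differed between the lines, by the interaction contrast in limma, in 13 of the 21 histone genes, 7 higher and 6 lower, beside 18.1 percent and 26.6 percent of all genes; the 6 lower are about the share of all genes. The values are the log2 change in LNCaP minus that in 22Rv1. The effect was lower in LNCaP for H2AC6 (-4.12), H2BC21 (-2.71), H2BC12 (-1.46), H2BC12L (-1.16) and H2BC6 (-0.53), where the call of H2BC6 ended in 13 of 20 alternatives. H2AC6, H2BC21, H2BC12 and H2BC12L already averaged between 11.09 and 12.74 in LNCaP control. The part of this starting level and of the actin control values was not tested. The fitted value for H2BC4 was -1.11, with no settled direction, since its 22Rv1 control arrays were under 4 and the rise there is known only as at least 1.60, against 2.44 in LNCaP. The effect was higher in LNCaP for H3C6 (1.41) and H2AC17 (1.37). The fitted values for H4C11 (3.13), H4C5 (1.96), H2AC14 (1.35) and H4C4 (0.83) were higher too, but rest on at least 1 group wholly under 4 and are no measured sizes. For H1-10, which was lower with overexpression in both lines, the difference of 1.15 means a smaller fall in LNCaP. Leaving out LNCaP overexpression replicate 1, which stood apart from the other replicates, gave 7 higher and 7 lower.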

How the results depend on the processing

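No histone gene changed direction after a call in any alternative of the 7 comparisons. Without the filter, calls lower were 8 in 22Rv1 overexpression and 2 in LNCaP overexpression, the LNCaP minus 22Rv1 effect had 13 calls higher, and LNCaP control against 22Rv1 control had 5 lower; more genes were tested there. With the filter at 6, which tests fewer genes, these last counts were 4 higher and 1 lower. With only the compared arrays fitted, 22Rv1 overexpression had 2 calls lower, scramble against 22Rv1 control had 4630 genes called in all, and arrays labelled ONECUT2 shRNA against 22Rv1 control had 1 histone gene higher and 1978 genes in all; the cause was not tested. Leaving out 1 array gave 210 to 503 genes in that last comparison. It gave 13 to 14 histone genes higher in 22Rv1 overexpression, 18 to 20 in LNCaP overexpression and 14 to 15 lower against scramble. With the replicate block the histone counts were 14 higher, 19 higher and 14 lower, and 7 higher and 5 lower for the difference between lines. Single genes kept their side of the threshold in 283 of 288 values in 22Rv1 overexpression, 273 of 288 in LNCaP overexpression, 287 of 288 against scramble and 399 of 414 for the difference. The call of H2BC6 in that difference ended in 13 of 20 alternatives (limma adjusted p between 0.00976 and 0.173). Dim probe sets near 4 have no order between groups.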
